A study of Rattus norvegicus with 30 samples.

Results

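Broad H3K4me3 domains were the widest H3K4me3 peaks of the control embryo cortex, chosen by their width in the control list as distinct intervals of 2000 bp or more. There were 636 of them among 113056 distinct control H3K4me3 intervals, or 0.563%, and they held 1.49 Mb of the 67.1 Mb covered by that list. The chromatin came from the frontal cortex of Wistar rat embryos at E14.5, whose mothers were fed either normal chow (control) or a commercial high-fat diet (HFD) from weaning, before and during pregnancy. ChIP-seq was performed with antibodies against H3K4me3, H3K27me3, H4K16Ac, total H3 and pan H4, with 3 libraries per antibody and diet, 30 in all. A replicate was the pooled cortex of a litter, so that all cell types of the tissue were measured together. The 3 libraries of a group had been combined into a single peak list, which left 10 lists with no replicate spread, and no test between the diets was possible. The labels of replicate 3 of control total H3 conflict, with HFD in the treatment field, and it was used as control because of its title and its peak list.

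H3K4me3 is laid down at the promoters of active and poised genes, mostly over CpG islands, and usually forms a short peak beside the start of transcription. Intervals that reach far beyond this length are known as broad domains, and in many tissues they lie at genes for cell identity and development. H3K27me3, the mark of Polycomb repression, can sit on the same promoters, which are then called bivalent. H4K16Ac marks open chromatin, and antibodies against total H3 and pan H4 recover nucleosomes whatever their modification. The intervals could not be given gene names, since the gene tables at hand describe another assembly than rn6, on which the peaks were called.

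The median domain was 2232 bp wide, with an interquartile range of 2097 to 2496 bp, against a median of 469 bp for all control H3K4me3 intervals. Most were only slightly above the limit: 478 of the 636 were shorter than 2500 bp, 118 measured 2500 to 2999 bp and 40 reached 3000 bp or more. The limit cut through a continuous range, as 208 intervals measured 1900 to 1999 bp and 163 measured 2000 to 2099 bp. Just inside it lay chr15:19546896-19548895 and chr5:27284194-27286193, both of 2000 bp, and chr10:92190551-92192551, of 2001 bp. Their −log10 q values, the peak caller's measure of confidence, were 120, 60.3 and 17.7, and HFD H3K4me3 covered 83.1%, 94.6% and 99.6% of them. Just outside lay chr15:4070665-4072662 and chr7:117164610-117166607, both of 1998 bp, and chr13:25965856-25967850, of 1995 bp. Their −log10 q values were 46.8, 18.2 and 97.1, and each was covered in full by HFD H3K4me3, where the overlapping intervals measured 2134, 2114 and 2061 bp.

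The domains were not single peaks. A median domain held 3 summits in the control list, 246 domains held exactly 3, and only 21 held 1. The most was 7 summits, which 3 domains had. Neighbouring summits of a domain were a median of 630 bp apart, with an interquartile range of 479 to 828 bp over 1362 spacings. The strongest summit fell in the middle 50% of the width in 423 domains and nearer to an edge in the other 213. Another control H3K4me3 interval lay within 5 kb of 23.9% of the domains, close to the 23.3% of the intervals of 1000 to 1999 bp. These values come from the list that chose the domains and are a description.

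The domains were spread over every chromosome, and 19 pairs of neighbours were within 50 kb of each other. Among chromosomes with at least 500 H3K4me3 intervals, X had the highest share of domains, with 27 of 2635, or 1.02% (95% Wilson interval 0.705 to 1.49%). Chromosome 12 had the lowest, with 15 of 4114, or 0.365% (0.221 to 0.601%). These intervals cover counting error only, as do all those given here. The pair closest together was on chromosome X, where a domain ended at 11642073 and the next began at 11647652, a gap of 5578 bp. A further pair on the same chromosome, 5798 bp apart, lay nearby, between 11594132 and 11599931. 4 domains were on unplaced scaffolds and 2 on the mitochondrial genome, whose DNA carries no histones. The mitochondrial domains, at positions 1449 to 3961 and 14012 to 16025, were kept because the rule takes every interval, and without them HFD H3K4me3 covered 89.4% of the domain bases, and H3K27me3 93.0% in control and 60.002% in HFD. The other shares given below include them.

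The widest domain, chr20:5258328-5263225, measured 4898 bp and held 7 summits. Its strongest control H3K4me3 summit had a fold enrichment of 3.28, the pileup of fragments relative to the local background. HFD H3K4me3 covered 91.3% of it with intervals of up to 3896 bp. Control H3K27me3 covered 99.6% and HFD H3K27me3 30.1%. H4K16Ac covered 89.5% in control and 87.3% in HFD, total H3 62.6% and 87.7%, and pan H4 64.6% and 86.9%. The domain was thus filled by both H3 marks in control, whereas its H3K27me3 was reduced to a stretch of 1474 bp in HFD.

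The second widest, chr9:110328309-110332107, measured 3799 bp and was broken up in HFD, where its widest H3K4me3 interval was 2513 bp and 79.6% of it was covered. Control H3K27me3 covered all of it and HFD H3K27me3 82.2%. H4K16Ac covered 97.4% in control and 99.3% in HFD. Total H3 covered 78.5% and 75.8%, and pan H4 80.4% and 68.7%. The domain chr20:3918030-3921517, of 3488 bp, kept its width in HFD, with an interval of 3530 bp, but its H3K27me3 coverage was 100% in control and 27.5% in HFD. Its H4K16Ac coverage was 99.5% and 100%, its total H3 coverage 85.5% and 83.9%, and its pan H4 coverage 75.1% and 57.6%.

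The other 7 of the 10 widest domains measured 3314 to 3506 bp. They were chr1:187898131-187901636, chr10:37312004-37315436, chr7:12421071-12424481, chr19:32559646-32563044, chr1:11909667-11913043, chr5:114012113-114015436 and chr14:46679871-46683184. Over all 10, HFD H3K4me3 covered 74.96% to 100% of a domain, and an HFD interval of at least 2513 bp lay on each. Control H3K27me3 covered 89.3% to 100% and HFD H3K27me3 21.1% to 100%. H4K16Ac covered 89.5% to 100% in control and 87.3% to 100% in HFD. Total H3 covered 62.6% to 100% in control and 68.4% to 100% in HFD, and pan H4 64.6% to 100% and 57.6% to 100%. HFD H3K27me3 was thus the list that varied most across the widest domains.

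The first question was whether the domains were as broad in the embryos of HFD mothers. An HFD H3K4me3 interval overlapped 635 of the 636 domains, or 99.8% (95% Wilson interval 99.1 to 100%), against 54.9% of all control intervals. HFD H3K4me3 covered 89.4% of the domain bases, and 413 domains were covered to at least 90%. Of the intervals of 1000 to 1999 bp it overlapped 94.9% and covered 79.4% of the bases. All control intervals together include many weak peaks, as 27.4% had a −log10 q of at least 5, against 95.3% of the domains. The HFD interval itself measured 2000 bp or more at 397 domains, or 62.4% (58.6 to 66.1%), while such HFD intervals overlapped 0.493% of all control intervals. The median HFD interval on a domain was 2093 bp wide, and the median ratio of HFD to control width was 0.957. It was narrower in HFD at 490 domains, wider at 145 and equal at 1.

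**Figure D1:**
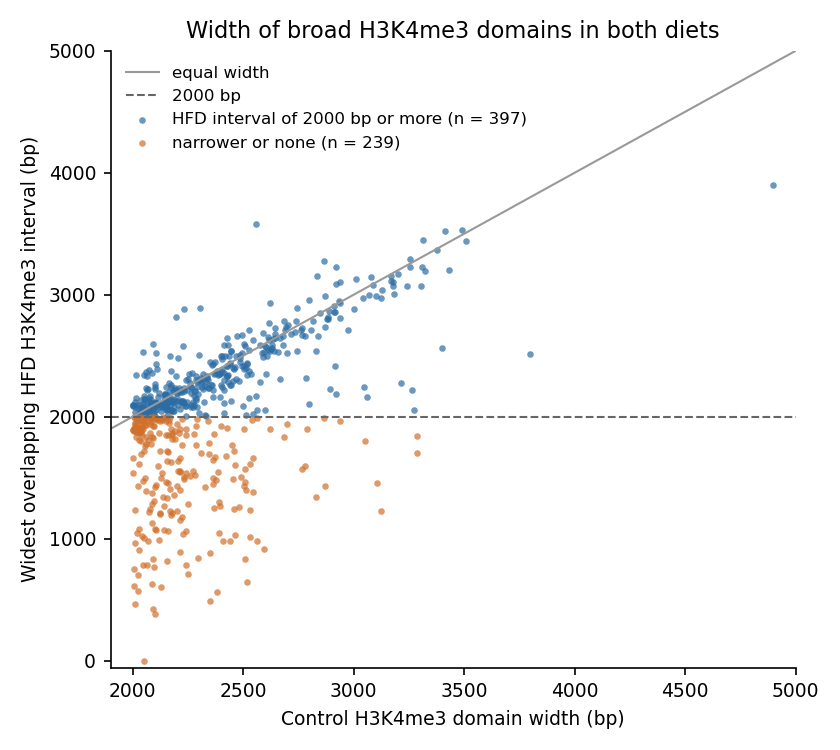
Width of each of the 636 control H3K4me3 domains (x axis, bp) against the width of the widest HFD H3K4me3 interval that overlaps it (y axis, bp). Each point is a domain, the grey line marks equal width and the dashed line 2000 bp. The 397 domains above the dashed line lie mostly along the line of equal width, and the 239 below it spread down to 1 domain with no HFD interval.

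Most of the domains that fell under the limit in HFD missed it by a shorter single peak. Of these 239 domains, 149 were overlapped by 1 HFD interval, 89 by 2 or more and 1 by none. In 70 of the 89 domains with 2 or more, the HFD intervals still spanned 2000 bp or more from the first start to the last end. The widest HFD interval on the 239 had a median of 1643 bp. The control domains that stayed broad were wider, with a median of 2320 bp against 2155 bp, and their median −log10 q in control was 48.3 against 37.4. The number that stayed broad was 166 of the 332 domains of 2000 to 2249 bp, while the share was 71.2% of the 146 of 2250 to 2499 bp, 78.0% of the 118 of 2500 to 2999 bp and 87.5% of the 40 of 3000 bp or more. These classes were cut on the control width that chose the domains, so that the narrowest lay next to the limit counted in HFD, and the values are a description.

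Because the domains were selected on control width, the same count was made from the HFD list. It held 524 intervals of 2000 bp or more among 107919, or 0.486%, against 0.563% in control, and their median width was 2230 bp. A control interval overlapped 519 of the 524, and control intervals of 2000 bp or more overlapped 397, or 75.8% (71.9 to 79.2%). The matching shares over all HFD intervals are not given here, so these counts are a description. The median ratio of control to HFD width was 0.996 when HFD chose the intervals, against 0.957 for HFD to control width when control did. Over the domains of either diet, HFD H3K4me3 covered 0.974 times as many bases as control. The background pileup of the lists, which depends on the number of sequenced fragments, was 87.7% of the control value in HFD H3K4me3. Its part in the smaller number of domains was not tested.

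The 5 domains with the lowest HFD H3K4me3 coverage were weak in control too. The domain chr5:138379039-138381087, of 2049 bp, was the only one with no HFD interval. It held 1 summit in control, with a fold enrichment of 4.01 and a −log10 q of 3.27, and a pileup of 9 fragments. No H3K27me3 interval of either diet overlapped it. H4K16Ac covered 84.7% of it in control and 15.9% in HFD, total H3 69.5% in control and none in HFD, and pan H4 34.7% and 18.6%. No HFD list covered more than 18.6% of this domain, those of the histone antibodies included.

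The other 4 were chr10:103856693-103858784, chr5:158436890-158438893, chrX:105910806-105912809 and chr10:88778508-88780608. HFD H3K4me3 covered 20.0%, 28.6%, 28.7% and 31.6% of them, and their control −log10 q values were 2.69, 2.25, 4.82 and 3.46. The median over all domains was 43.6. Control H3K27me3 covered 15.3%, 100%, 96.4% and 52.1% of these 4 domains, and HFD H3K27me3 none, 24.5%, none and 12.4%. H4K16Ac covered 32.4% to 100% in control and 36.9% to 100% in HFD. Total H3 covered 47.0% to 100% in control and 26.3% to 100% in HFD, and pan H4 34.4% to 90.5% and 33.0% to 100%. Their control pileups were 10 to 13 fragments at the strongest summit, against a median of 98.5 over all domains.

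At the other end, the domain with the largest gain in width was chr6:30629829-30632385, which measured 2557 bp in control and lay under an HFD interval of 3578 bp, 1.40 times as wide. Its strongest H3K4me3 summit had a −log10 q of 334 in control and 456 in HFD. H3K27me3 covered 57.3% of it in control and 100% in HFD, H4K16Ac covered it in full in both, total H3 covered 87.0% and 100%, and pan H4 74.8% and 100%. All of the other 4 antibodies therefore covered it as much or more in HFD. It was also among 19 domains with a high local background, described with H3K27me3 further on, as was chr6:10805836-10808139 of the next set.

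The next 4 were chr1:144831371-144833602, chr9:63637778-63639972, chr6:10805836-10808139 and chr7:35999781-36001871, where the HFD interval was 1.29, 1.28, 1.26 and 1.24 times as wide. HFD H3K4me3 covered 98.6% to 100% of each, and H4K16Ac covered all 4 in full in both diets. Control H3K27me3 covered 100%, 100%, 99.1% and 95.2% of them, and HFD H3K27me3 30.02%, none, 92.4% and 84.7%. Total H3 covered 38.4% to 100% in control and 60.6% to 100% in HFD. Pan H4 covered 66.5% to 99.9% in control and 79.9% to 100% in HFD.

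The strength of H3K4me3 was compared through the number of fragments at each summit, which the fold enrichment and the p-value of a narrow peak together determine. The median domain had 98.5 fragments at its strongest control summit, 79.9 times the background of that list, against 56 fragments or 45.4 times the background in the intervals of 1000 to 1999 bp. In HFD it had 79 fragments, or 73.1 times the HFD background, against 46 fragments and 42.6 times in the shorter intervals. Scaled to each list's background, the HFD summit was lower than the control summit in 447 of 635 domains, or 70.4%. The median ratio was 0.888, with an interquartile range of 0.785 to 1.04. In the intervals of 1000 to 1999 bp present in both diets the HFD summit was lower in 71.8%, with a median ratio of 0.834. The share was 53.2% at 500 to 999 bp and 38.1% under 500 bp. Among the 519 HFD domains overlapped by a control interval the share was 65.3% and the median ratio 0.911. At the domains the median ratio of total H3 was 0.808 and that of pan H4 was 1.24, which placed the H3K4me3 ratio between those of the histones themselves.

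Fold enrichment gave the opposite order of domains and shorter intervals from the number of fragments. The median control H3K4me3 fold enrichment was 6.19 in the domains and 8.35 in the intervals of 1000 to 1999 bp, and in HFD the values were 6.26 and 8.25. Fold enrichment was also lower in the domains in every other list, but fragment numbers were recovered only in the narrow lists. Domains had 0.705 times the fold enrichment of the shorter intervals for control H3K27me3, 0.951 times for HFD H3K27me3, 0.728 and 0.740 times for H4K16Ac in control and HFD, 0.705 and 0.720 times for total H3, and 0.720 and 0.676 times for pan H4. The local background, to which the enrichment is relative, was higher around the domains. It was solved from the same fold enrichment and p-value as the number of fragments, so it is no separate observation. This background was 12.2 times the genome background at the control H3K4me3 summits of the domains and 4.55 times in the shorter intervals. For total H3 in control the corresponding values were 7.16 and 3.70 times, and for pan H4 in control 6.66 and 3.51 times.

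The second question was which other marks lay on the domains. Every antibody covered most of their bases in control: 92.9% by H3K27me3, 96.5% by H4K16Ac, 88.7% by total H3 and 93.1% by pan H4. Control H3K27me3 overlapped 633 of the 636 domains, or 99.5% (98.6 to 99.8%), against 40.4% of all control H3K4me3 intervals. Control H4K16Ac overlapped all 636, against 82.8% of all intervals, as did control total H3, against 72.6%, and control pan H4, against 76.8%. In HFD, H4K16Ac overlapped all 636, against 81.6% of all intervals, total H3 overlapped 634, against 73.0%, and pan H4 overlapped all 636, against 78.4%. HFD H3K27me3 overlapped 601 domains, or 94.5% (92.4 to 96.0%), against 26.9% of all intervals. The intervals of 1000 to 1999 bp came close to the domains in most lists. In control, H3K27me3 overlapped 91.3% of them, H4K16Ac 99.1%, total H3 98.0% and pan H4 99.0%. In HFD the values were 75.7% for H3K27me3, 98.9% for H4K16Ac, 98.2% for total H3 and 98.9% for pan H4.

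Overlap rose with the width of the H3K4me3 interval in all 9 other lists. Control H3K27me3 covered 15.8% of the bases of intervals under 500 bp, 46.9% at 500 to 999 bp, 78.9% at 1000 to 1999 bp and 92.9% of the domains. HFD H3K27me3 covered 7.91%, 24.3%, 47.4% and 60.1%. Control total H3, which is not specific to a mark, covered 51.4%, 72.8%, 84.8% and 88.7%, so that wide H3K4me3 intervals were also those most often called with the histone antibodies. A wide interval offers more bases to overlap, but the share at its strongest summit, a single base, rose as well. That base lay in a control H3K27me3 interval in 17.1% of the intervals under 500 bp and 98.6% of the domains, and in a control total H3 interval in 55.5% and 99.2%.

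**Figure D2:**
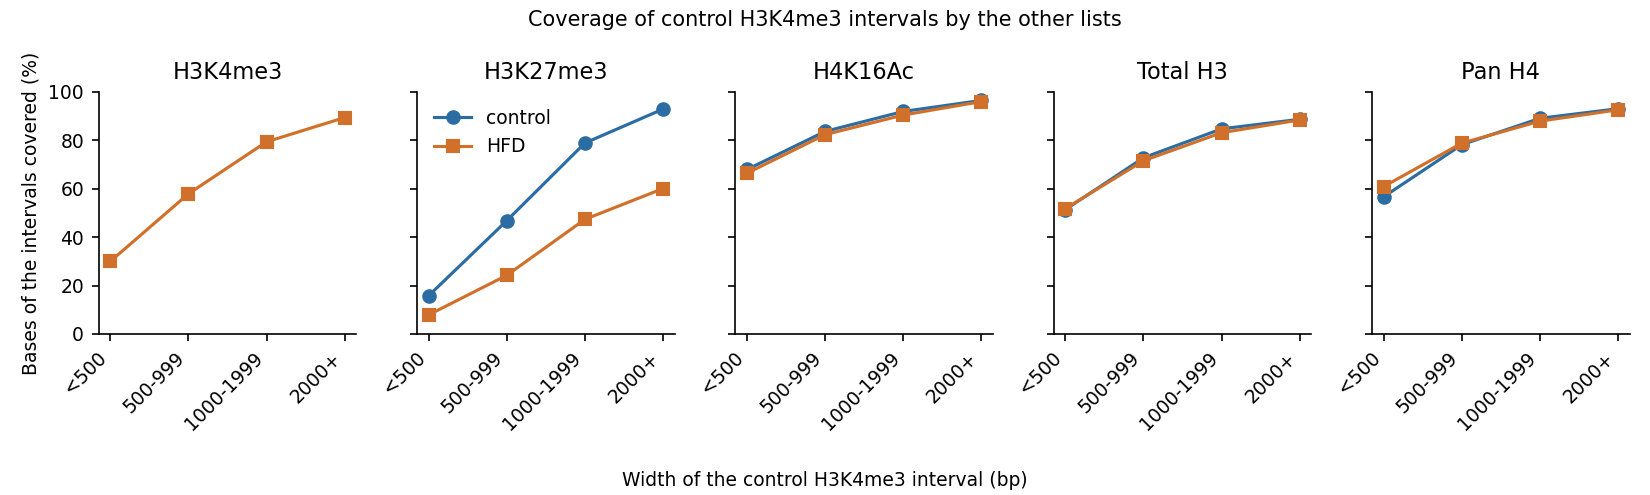
Share of the bases of control H3K4me3 intervals (y axis, %) covered by each of the other 9 lists, by width of the interval (x axis, bp), with control lists as blue circles and HFD lists as orange squares. Coverage rises towards the domains of 2000 bp or more in every panel, and in the domains the diets part only for H3K27me3, at 92.9% and 60.1%.

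In most lists the overlapping peaks ended close to the edges of the domains, HFD H3K27me3 being the exception. The widest control H3K27me3 interval on a domain had a median width of 2233 bp, close to the 2232 bp of the domains, and 67.5% of its 1266 edges lay within 100 bp of the H3K4me3 edge. This share was 64.8% for HFD H3K4me3, 56.1% for control total H3, 62.7% for control pan H4 and 57.1% for control H4K16Ac, but 20.6% for HFD H3K27me3, whose edges lay a median of 298 bp away. Near edges were no trait of the domains alone. In the intervals of 1000 to 1999 bp the share was 64.5% for control H3K27me3, 65.6% for HFD H3K4me3, 62.2% for control total H3, 64.7% for control pan H4, 55.9% for control H4K16Ac and 23.4% for HFD H3K27me3. Control H3K27me3 covered 61.8% of the bases in the 100 bp inside the edge and 21.7% in the 100 bp outside, and control total H3 covered 64.2% and 27.4%. H4K16Ac reached furthest out. It covered 45.5% of the first 100 bp outside in control and 17.6% at 400 to 500 bp, where control total H3 covered 3.801%. At 2500 to 3000 bp outside the values were 5.68% and 2.52%. The control H4K16Ac list was called as broad peaks and covers 196 Mb, and that of total H3 was called as narrow peaks and covers 95.9 Mb. The part of the peak calling in this difference was not tested. The H4K16Ac interval was wider than the domain it overlapped in 436 domains in control and 415 in HFD.

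**Figure D3:**
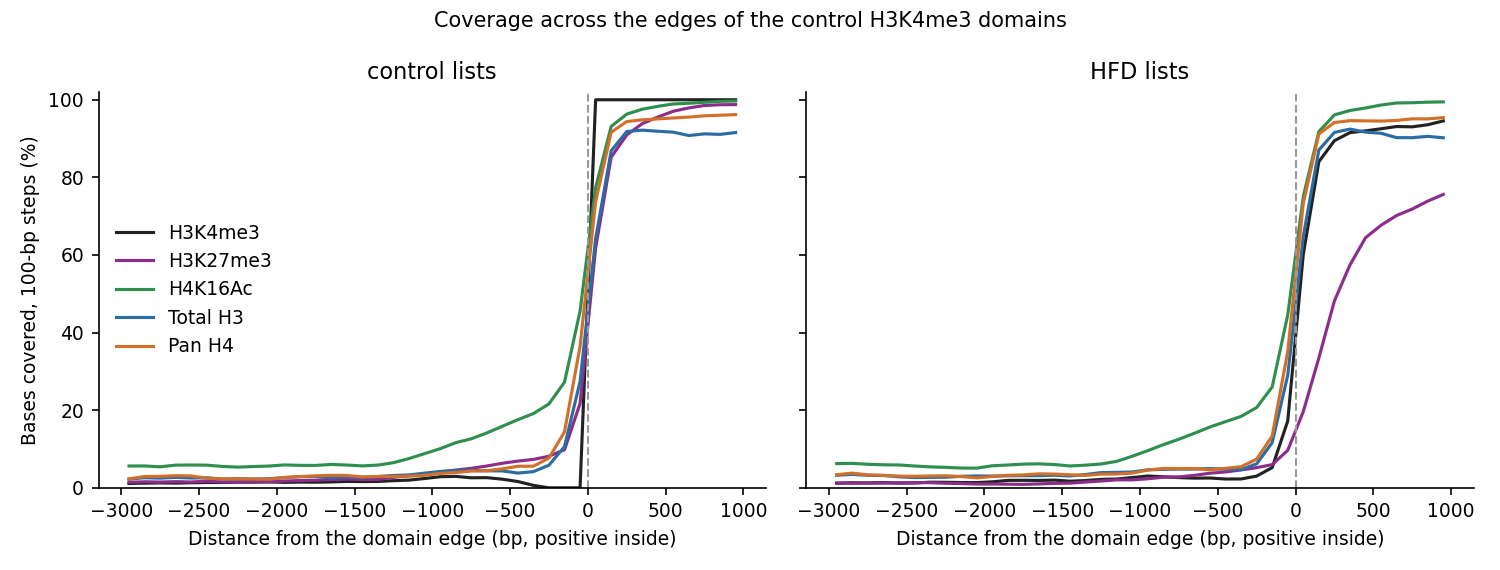
Share of bases covered (y axis, %) in steps of 100 bp across the edges of the 636 control H3K4me3 domains, with distance from the edge on the x axis (bp, negative outside and positive inside, both edges combined), for the control lists (left) and the HFD lists (right). Control H3K4me3 is 100% inside because it defines the edges. The other lists rise at the same place except HFD H3K27me3, which reaches 71.8% at 500 to 1000 bp inside, while control H3K27me3 reaches 98.2%.

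The third question was how each mark on the domains differed between the diets. H3K27me3 had the largest difference. Its covered bases in the domains were 1388 kb in control and 898 kb in HFD, a ratio of 0.647, whereas the ratio was 0.995 for H4K16Ac, 0.997 for total H3 and 0.995 for pan H4. Coverage by H3K27me3 was lower in HFD at 573 domains, higher at 55 and equal at 8, and the median difference was −26.2 percentage points. Over all control H3K4me3 intervals H3K27me3 covered 44.7% of the bases in control and 24.8% in HFD. The lower coverage was thus no trait of the domains. Most domains had an H3K27me3 interval in both diets: 600 were overlapped in both, 33 only in control, 1 only in HFD and 2 in neither. Many of the HFD intervals were weak calls. The H3K27me3 lists held peaks with q-values of up to 0.486 in control and 0.480 in HFD. The median −log10 q on a domain was 17.9 in control and 1.05 in HFD. The widest H3K27me3 interval on a domain had a median of 2233 bp in control and 1573 bp in HFD, over the domains that had one. In control 9 domains were covered to less than 50%, and in HFD 213 were.

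**Figure D4:**
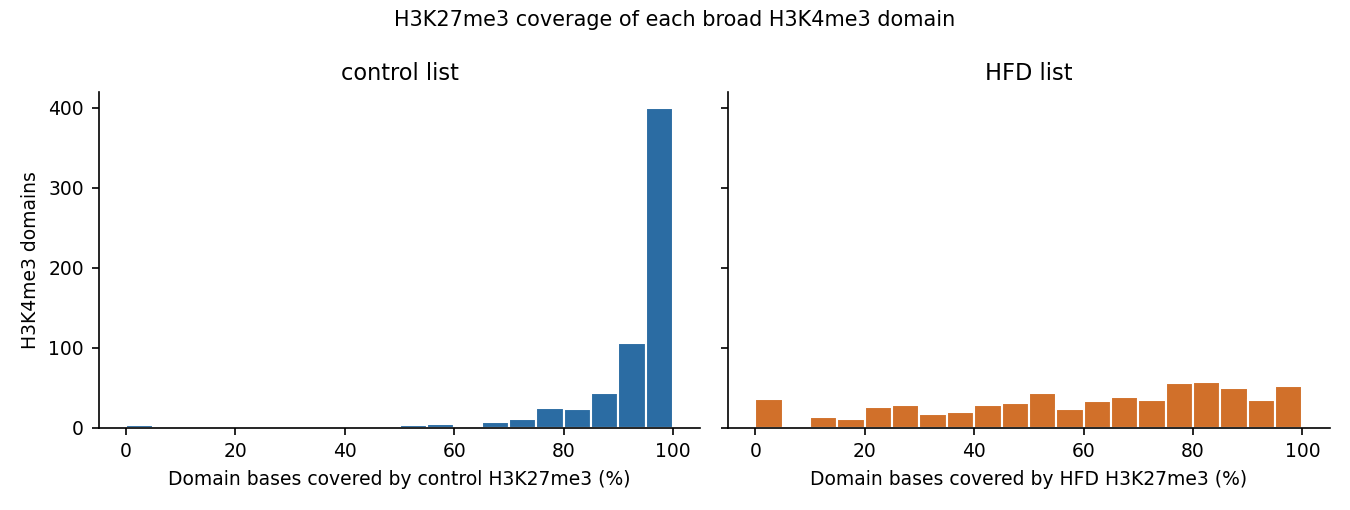
Number of domains (y axis) by the share of their bases covered by H3K27me3 (x axis, %, in steps of 5 points), for the control list (left, blue) and the HFD list (right, orange). In control the domains crowd near full coverage, with 506 covered to at least 90%, and in HFD they spread over the whole range, with 87 covered to at least 90% and 35 not covered.

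The HFD H3K27me3 list had a lower estimated background pileup, 0.351 fragments per base against 0.880 in control, or 39.9%. The HFD lists of H4K16Ac, total H3 and pan H4 had 109%, 111% and 110% of their control values. The H3K27me3 and H4K16Ac estimates come from region averages, and the recovery of whole fragment numbers was checked only in the narrow lists. The part of sequencing depth in the difference was not tested. The ratio in the domains was also not lower than elsewhere: it was 0.6002 in the intervals of 1000 to 1999 bp, 0.518 at 500 to 999 bp, 0.4998 under 500 bp and 0.556 over all control H3K4me3 intervals. No replicate spread exists for any of these ratios.

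With peaks of −log10 q of at least 5 only, few domains had an H3K27me3 peak in HFD. Such peaks overlapped 559 domains in control, or 87.9%, against 15.2% of all intervals, and 15 domains in HFD, or 2.36%, against 0.563% of all intervals. The median −log10 q of H3K27me3 on a domain was 17.9 in control and 1.05 in HFD, and the median fold enrichments were 4.04 and 3.07. In control, 545 domains had such a peak that HFD lacked. This was no trait of the domains: in the whole lists 594 of 49072 HFD H3K27me3 peaks reached this level, against 16607 of 57604 in control. The HFD to control ratio of bases covered by such peaks was 0.0268 in the domains and 0.0269 over all control H3K4me3 intervals. The part of sequencing depth in these values was not tested. At this level HFD H3K4me3 overlapped 612 domains, or 96.2%, against 25.5% of all intervals. Control total H3 overlapped 97.3%, against 47.2%, and HFD total H3 97.5%, against 48.6%. Control pan H4 overlapped 98.1%, against 45.8%, and HFD pan H4 99.2%, against 63.0%.

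Most of the 15 domains with a stronger HFD H3K27me3 peak lay where the background was high. In 19 of the 636 domains the local background of control total H3 was more than 20 times that of its genome, against a median of 7.16 times over all domains, and 12 of the 15 were among these 19. This limit was chosen after the values were seen. The 19 include both mitochondrial domains and 4 of the 10 widest domains, which are chr1:187898131-187901636, chr7:12421071-12424481, chr1:11909667-11913043 and chr14:46679871-46683184. An example is chr4:146546128-146548611, of 2484 bp, with the highest H3K4me3 −log10 q of all domains, 1157. Its H3K27me3 −log10 q was 109 in control and 34.6 in HFD, and its H4K16Ac and total H3 values in control were 438 and 2339. Another is chr14:46679871-46683184, where H3K27me3 had −log10 q values of 6.94 and 13.2 at fold enrichments of 1.98 and 2.55. Without the 19, stronger HFD H3K27me3 peaks overlapped 3 of 617 domains, or 0.486%, and the covered share of the domain bases was 92.9% in control and 59.0% in HFD.

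The other 3 were chr1:181197537-181199681, chr1:194915972-194918177 and chr13:33487853-33489864. They were under the limit in control total H3, at 5.51, 5.999 and 6.87 times the genome background. The local background of HFD total H3 there was 15.6, 10.1 and 20.1 times, against a median of 5.81 times over all domains. H3K4me3 pileups at their strongest summits were 92, 72 and 74 fragments in control and 258, 106 and 140 in HFD. Those of total H3 were 57, 49 and 38 in control and 230, 95 and 122 in HFD, and those of pan H4 227, 71 and 138 in control and 559, 77 and 332 in HFD. Their H3K27me3 −log10 q values in control were 17.4, 10.2 and 7.99, and in HFD 13.6, 10.5 and 5.75. HFD H3K27me3 covered 71.5%, 90.3% and 88.7% of them.

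The 5 domains with the most control H3K27me3 bases were also among the 10 widest, as a count of bases favours wide domains: chr20:5258328-5263225, chr9:110328309-110332107, chr20:3918030-3921517, chr7:12421071-12424481 and chr19:32559646-32563044. They held 4876, 3799, 3488, 3411 and 3303 bp of control H3K27me3, and 1474, 3121, 960, 830 and 1594 bp of HFD H3K27me3. They were chosen for their control value, which was at or near full coverage, so the lower HFD values are a description. H3K4me3 in HFD covered 91.3%, 79.6%, 99.7%, 99.5% and 74.96% of the same domains.

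The opposite case, a domain with no control H3K27me3, occurred 3 times, at chr1:56218392-56220771, chr15:2813670-2815797 and the domain of chromosome 5 that HFD H3K4me3 lacked. Their control H3K4me3 −log10 q values were 4.01, 4.42 and 3.27, far below the lower quartile of 21.1. HFD H3K27me3 covered 15.9% of the first and none of the others. Control H4K16Ac covered 91.9%, 100% and 84.7% of them.

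Stronger H4K16Ac peaks were less frequent in the wider classes of domains. Although H4K16Ac intervals overlapped every domain, those of −log10 q of at least 5 overlapped only 324 domains in control, or 50.9%, against 29.4% of all intervals, and 400 in HFD, or 62.9%, against 32.4%. In the intervals of 1000 to 1999 bp the shares were 68.0% and 72.7%. In control the share rose to 71.3% of the intervals of 1500 to 1749 bp and was 60.2% at 2000 to 2249 bp (95% Wilson interval 54.9 to 65.4%), 45.2% at 2250 to 2499 bp (37.4 to 53.3%), 43.2% at 2500 to 2999 bp (34.6 to 52.2%) and 17.5% at 3000 bp or more (8.75 to 32.0%). In HFD the last 4 values were 70.8%, 60.3%, 51.7% and 40.0%. Over the same 4 classes control H3K27me3 went from 85.2% to 89.7%, 89.8% and 97.5%, and HFD H3K27me3 was at 2.71%, 0.685%, 3.39% and 2.50%.

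**Figure D5:**
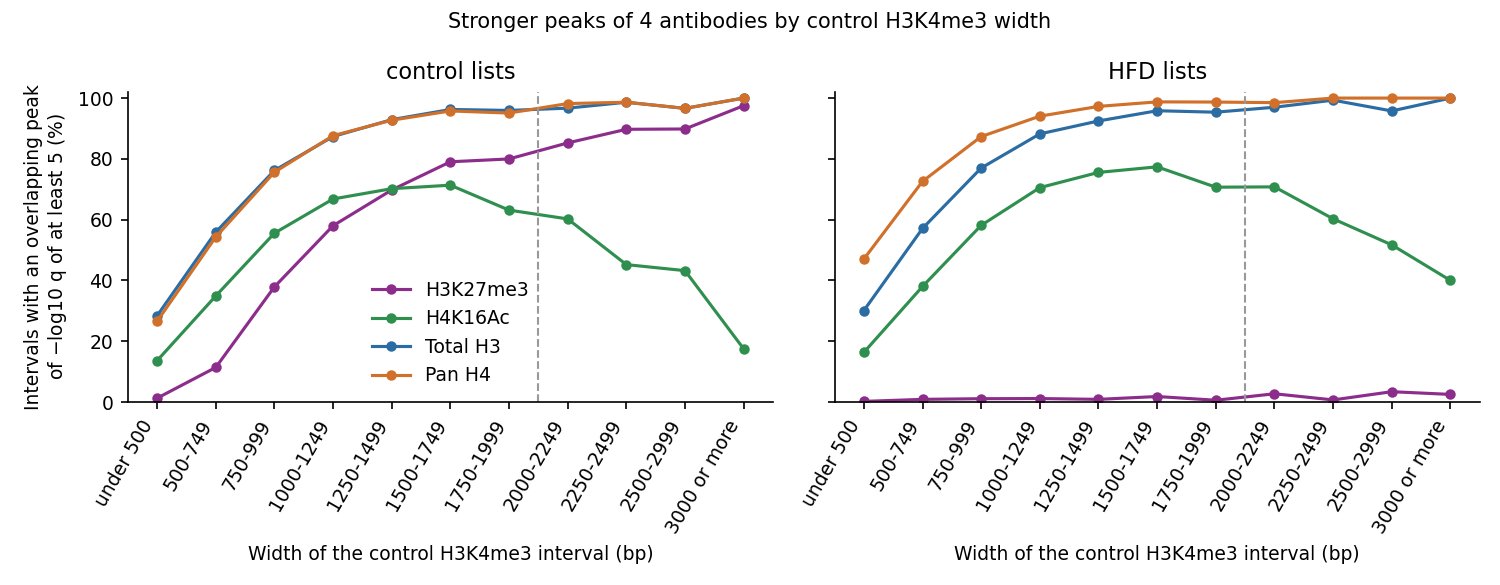
Share of control H3K4me3 intervals overlapped by a peak of −log10 q of at least 5 (y axis, %), by width of the interval (x axis, bp), for H3K27me3, H4K16Ac, total H3 and pan H4 in the control lists (left) and the HFD lists (right), with the dashed line at 2000 bp. Control H3K27me3, total H3 and pan H4 are at 97.5% or more in the widest class, whereas H4K16Ac falls from 71.3% to 17.5% in control and from 77.4% to 40.0% in HFD, and HFD H3K27me3 is at 3.39% or less in every class.

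The fold enrichment of H4K16Ac was 3.27, 2.99, 2.84 and 2.43 in control over the 4 classes of domain width. It was not alone in this: control H3K27me3 went from 4.45 to 3.10, control total H3 from 5.46 to 3.86 and control pan H4 from 5.32 to 3.77. Over the same classes the local background of control total H3 went from 6.45 to 9.67 times the genome background. Of the lists whose values are averages over a region, control H4K16Ac had a lower enrichment than control H3K27me3 in every class, and its median −log10 q over the domains was 5.05, next to the level of 5. The part of the local background in the H4K16Ac shares was not tested. Without the 19 domains of high local background the control shares were 59.4%, 44.4%, 41.1% and 11.1%.

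Most lists ranked the domains alike. Spearman's rho of the fold enrichment was 0.873 between H3K4me3 in control and HFD, 0.936 between H4K16Ac in control and HFD, and 0.810 between H3K4me3 and H3K27me3 in control. It was 0.809 between total H3 in the 2 diets and 0.836 for pan H4. Control H3K4me3 also ranked with the histone antibodies, with a rho of 0.645 for pan H4 and 0.586 for total H3. The exception was HFD H3K27me3, at 0.314 with control H3K27me3 and 0.315 to 0.356 with the other lists. A domain with no interval of a list has no fold enrichment in that list. This was so in 35 domains for HFD H3K27me3, 3 for control H3K27me3, 2 for HFD total H3 and 1 for HFD H3K4me3. These values are across domains, which are not replicates, and they are given as a description. The part of the local background in them was not tested.

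The domains that stayed broad in HFD were covered more fully by every list, but had lower fold enrichments. They were chosen by their HFD H3K4me3 width, so that their higher coverage by that list was fixed by the choice. They were also wider in control, with a median of 2320 bp against 2155 bp, and the part of width in these values was not tested. Control H3K27me3 covered 95.3% of the bases of the 397 domains and 88.7% of those of the other 239, and HFD H3K27me3 63.1% and 54.6%. The values for control total H3 were 91.6% and 83.5%, for control pan H4 95.2% and 89.4%, and for control H4K16Ac 97.6% and 94.6%. Median fold enrichment was 6.05 in the 397 and 6.75 in the 239 for HFD H3K4me3, 3.93 and 4.31 for control H3K27me3, 3.07 and 3.10 for HFD H3K27me3, and 2.95 and 3.18 for control H4K16Ac. It was 4.87 and 5.37 for control total H3, 4.76 and 5.23 for control pan H4, and 5.10 and 5.82 for HFD pan H4.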

How the data were processed

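ChIP-seq peak lists of rat embryo cortex were analysed, 1 list for each of 5 antibodies in control and HFD, grouped by the labels. Bowtie2 alignment to rn6 and MACS2 peak calling on the 3 pooled libraries were done by the authors. MACS2 was run with its recommended settings per the study's methods. Versions, exact settings, duplicate handling and any input are not given in the sources used here. For each peak the deposited lists hold a fold enrichment (a ratio of pileup to local background), a −log10 p-value and a −log10 q-value. They belong to a summit in the 6 narrow lists and are region averages in the 4 broad lists (H3K27me3 and H4K16Ac). The lists include weak peaks, as the highest q-value in a list was 0.480 (HFD H3K27me3) to 0.500 (HFD pan H4).

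Distinct intervals were counted once, with the values of the strongest summit, and compared by overlap of at least 1 bp and by covered bases, with Python 3.11.15, numpy 2.4.6, pandas 2.3.3 and scipy 1.17.1. The functions were tested on simulated data. Pileups were solved from fold enrichment and p, assuming MACS2's formulas. For 100% of the distinct narrow intervals, a whole number of fragments matched the listed −log10 p within 0.1%. The background pileup was 0.351 (HFD H3K27me3) to 1.80 (HFD pan H4) fragments per base. Shares carry 95% Wilson intervals. No test was run.

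Named regions were the 10 widest domains, the 5 with the most control H3K27me3 bases, the 5 with the lowest HFD H3K4me3 coverage, the 5 with the widest HFD interval relative to control, and 3 on each side of 2000 bp. Chromosomes were named among those with at least 500 intervals. The domains with stronger HFD H3K27me3, those with no control H3K27me3 and the closest pairs were named after their values were seen. The domains and rules were chosen with earlier results of these data known. The alternatives without the mitochondrial domains and without the domains of high local background, and those of the summit pileup, were added after the data were seen. Gene names and sequences were not used here.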

Additional observations from a re-analysis of the deposited data

How the results depend on the processing

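No paired analysis was possible because the 3 libraries of a group were pooled into 1 list, and for the same reason no library could be left out. In all, 27 of 150 recomputed values moved, a share by more than its counting interval or a count or ratio by more than 1.5 times. With domains of 1500 bp or more there were 2766, and bases covered fell to 86.5% for HFD H3K4me3 and 89.3% for control H3K27me3. With 3000 bp or more there were 40, all overlapped by HFD H3K4me3 (100%), and bases covered were 92.0% for HFD H3K4me3, 96.3% and 53.8% for H3K27me3 in control and HFD, 98.1% and 97.4% for H4K16Ac, and 89.7% for control pan H4. With intervals within 500 bp joined, they were 81.2% for HFD H3K4me3, 89.3% and 54.9% for H3K27me3, 82.6% and 82.2% for total H3, and 87.6% and 87.1% for pan H4. With peaks of −log10 q of at least 5 only, in the control H3K4me3 list as well, there were 606 domains. Bases covered in these 606 were 87.6% and 2.35% for H3K27me3, 49.2% and 61.2% for H4K16Ac, and 85.9% and 85.5% for total H3. The H3K27me3 ratio of HFD to control was then 0.0268, and the H4K16Ac ratio turned from 0.995 to 1.24, within 1.5 times. HFD H3K4me3 covered at least 50% of 97.8% of the domains. When the HFD list defined the domains, 75.8% were as broad in control. The causes were not tested. The H3K27me3 ratio stayed below 1 under its 10 alternatives, at 0.0268 to 0.671. The ratios of H3K4me3, total H3 and pan H4 kept within 0.959 to 1.03. The HFD H3K27me3 list has the lowest background pileup, 0.351 fragments per base, estimated from averaged values. Without replicates no difference between the diets can be set against the spread between litters.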
